A study of Homo sapiens with 34 samples.

Results

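ChIP-seq, the sequencing of DNA bound by a protein, located RBPJ in MB157 cells, a triple-negative breast cancer line driven by NOTCH, and in their γ-secretase inhibitor (GSI)-resistant derivative MB157R. A set of 3343 distal RBPJ sites was found in each of 4 conditions, out of 25243 RBPJ summits of control MB157 cells on chromosomes 1 to 22 and X. Of those summits, 15511 were distal, which means that they lay more than 1 kb from every protein-coding transcription start site (TSS). A distal summit was called constant when each of the other 3 RBPJ lists had a summit less than 500 bp away. This rule was met by 21.6% of the distal summits and by 31.4% of all summits. Taken alone, the iSOX2 list had a summit near 62.8% of the distal summits, the MB157R iEV list near 34.7% and the iN1-ICD list near 33.4%. The calls in the 4 RBPJ lists thus chose the sites, so RBPJ calls and folds at them are given as a description without a test.

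All cells carried a doxycycline-inducible vector and received 1 µg/ml doxycycline for 72 h. In MB157 the vector held either no gene (iEV) or SOX2 with a HA tag (iSOX2), and in MB157R it was empty (iEV) or encoded a HA-tagged NOTCH1 without its extracellular part (iN1-ICD), a form from which γ-secretase releases the intracellular domain. MB157R had grown for 25 weeks with 1 µM of the GSI LY3039478, and whether the inhibitor was present during induction is not given in the sources used here. Parental MB157 cells make a truncated, constantly active NOTCH1 that still needs γ-secretase. The 34 libraries held 22 immunoprecipitations in 8 groups and 12 inputs in 4 groups, and each group's libraries were pooled before peak calling. Each condition was therefore 1 list, no spread between replicates was known, and no test between conditions was possible. Tests below compare classes of sites within these lists, their intervals cover counting error only, and neighboring sites are not independent. The lists hold no expression values, so that cell identity could not be checked with marker genes.

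RBPJ is the DNA-binding protein of the NOTCH pathway. When a ligand activates a NOTCH receptor, γ-secretase releases the intracellular domain, which enters the nucleus, joins RBPJ and a Mastermind coactivator and switches on target genes such as HES1, HEY1 and NRARP. Without the intracellular domain, RBPJ can hold corepressors such as SPEN. Many NOTCH-regulated enhancers lie far from promoters. SOX2, a transcription factor of stem cells, was mapped in MB157R with an antibody to SOX2 and in MB157 iSOX2 through the HA tag.

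The DNA under the summits shows what these sites look like. The first 5 of the following stretches of 121 bases belong to sites that were among the strongest in MB157 iEV or ranked high in every list, the next 4 to NOTCH target genes, and the last to a site that was weak in MB157 and strong in MB157R. They are hg38 plus-strand sequence centered on the MB157 iEV summit. Capitals mark the RBPJ motif (GTGGGAA or GTGAGAA), its inner letters TGGGAA, the AP-1 motif (TGACTCA or TGAGTCA) and the SOX motif (AACAATG or AACAAAG) on either strand. A TTCCCA is a match on the minus strand. The inner letters were added to the search after these sequences had been read.
Downstream of IER5, chr1:181117773-181117893: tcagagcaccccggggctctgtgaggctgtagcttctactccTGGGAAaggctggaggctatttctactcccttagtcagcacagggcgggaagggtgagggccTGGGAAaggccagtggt
NRARP, far site, chr9:137311565-137311685: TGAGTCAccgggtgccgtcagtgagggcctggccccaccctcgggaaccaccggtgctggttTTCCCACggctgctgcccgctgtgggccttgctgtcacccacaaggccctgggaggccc
NRARP, near site, chr9:137305152-137305272: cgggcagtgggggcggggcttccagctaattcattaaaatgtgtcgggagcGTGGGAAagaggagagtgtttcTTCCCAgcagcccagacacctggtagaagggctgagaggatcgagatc
Near RHOV, chr15:40871937-40872057: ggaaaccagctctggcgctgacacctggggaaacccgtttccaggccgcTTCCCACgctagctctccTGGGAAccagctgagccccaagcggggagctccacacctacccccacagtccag
Chromosome X site, chrX:46327555-46327675: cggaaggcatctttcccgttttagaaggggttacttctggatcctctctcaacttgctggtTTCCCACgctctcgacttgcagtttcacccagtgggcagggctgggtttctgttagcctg
Upstream of HES1, chr3:194134854-194134974: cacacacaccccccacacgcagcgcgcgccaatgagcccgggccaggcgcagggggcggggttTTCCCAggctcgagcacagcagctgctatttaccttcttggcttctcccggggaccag
In NOTCH1, chr9:136544542-136544662: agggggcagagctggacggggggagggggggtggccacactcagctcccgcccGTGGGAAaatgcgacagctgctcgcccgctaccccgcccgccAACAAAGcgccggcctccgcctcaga
In NOTCH3, chr19:15195782-15195902: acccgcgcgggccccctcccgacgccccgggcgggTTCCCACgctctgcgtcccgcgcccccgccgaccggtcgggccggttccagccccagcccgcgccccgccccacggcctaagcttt
Upstream of CCND1, chr11:69638433-69638553: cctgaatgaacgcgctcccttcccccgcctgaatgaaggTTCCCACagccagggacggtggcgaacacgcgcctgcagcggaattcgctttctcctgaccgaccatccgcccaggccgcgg
Near TOMM20, chr1:235079642-235079762: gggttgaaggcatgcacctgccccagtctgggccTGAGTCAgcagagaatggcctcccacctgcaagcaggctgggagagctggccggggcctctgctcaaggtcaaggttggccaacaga

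In the far NRARP, RHOV and chromosome X sites, a full RBPJ motif lay close to the summit. The IER5 and HES1 sites, both strong, had no full RBPJ motif within 100 bp and held TGGGAA preceded by another base. The site nearer to NRARP held a full motif and a TTCCCA facing it, with 15 bp between GTGGGAA and TTCCCA. Facing RBPJ sites at such a distance are known as the arrangement that pairs NOTCH complexes. The TOMM20 site showed an AP-1 motif and no TGGGAA within these 121 bases.

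The constant distal sites were stronger than other peaks, a property that the rule favors. Fold enrichment at the summit over local input had a median of 6.19 in MB157 iEV, with quartiles of 4.73 and 8.83 and a range from 1.32 to 81.0. The distal summits that were not constant had a median of 4.61, and the 4582 constant sites at promoters a median of 5.60. Median folds of the constant distal sites in the other lists were 5.93 (iSOX2), 7.47 (MB157R iEV) and 6.32 (iN1-ICD). Folds were also ranked within each list, with 100 for the strongest peak. The median percentile rank was 72.3, 76.9, 78.7 and 74.3 in the same order. At the median, the sites were thus above the middle of every list without being confined to its top. A fold rests on whole fragments, with a median of 20, 24, 27 and 21 at the summits, and the lowest count was 8 in each list.

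**Figure D1:**
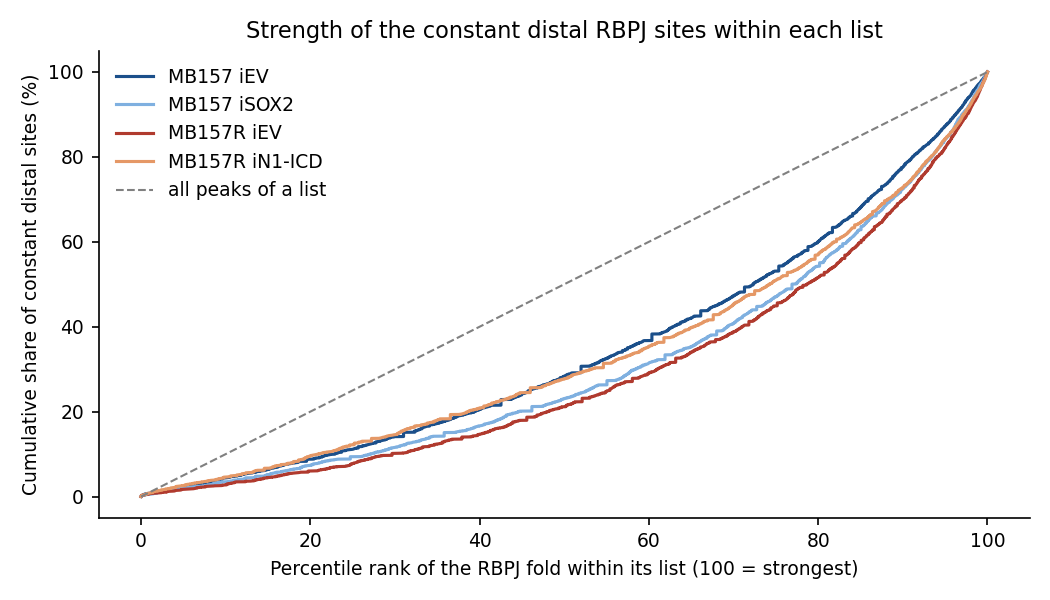
Cumulative share of the 3343 constant distal sites (y axis, %) up to each percentile rank of their RBPJ fold within a list (x axis), with 1 line for each pooled RBPJ list and a dashed line for all peaks of a list. At the median all 4 curves lie below the dashed line, with medians between 72.3 and 78.7. Some sites were among the weakest peaks, with folds down to 1.32 in MB157 iEV.

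The place of a site within a list varied. The range of the percentile rank over the 4 lists had a median of 37.1 points, and 1034 sites (30.9%) spanned more than 50 points. At the other end, 443 sites spanned less than 10 points, 295 sites (8.82%) were within the top 10 percent of all 4 lists and 128 sites (3.83%) were below the middle of all of them. Across the 3343 sites the folds of the same cell line were more alike than those of different lines. Spearman's rank correlation was 0.69 between MB157 iEV and iSOX2 and 0.65 between MB157R iEV and iN1-ICD, whereas the 4 pairs across lines had values from 0.39 to 0.46. These correlations are across sites that share the same pooled libraries and are given without a p-value. The lists held between 25243 and 46601 peaks, and a longer list with more weak peaks raises the percentile rank of a given fold, so ranks of different lists are not a common scale of strength.

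Summits stayed close together. The median distance to the partner summit was 51.0 bp for the iSOX2, 51.0 bp for the MB157R iEV and 49.0 bp for the iN1-ICD list. At the median, the outermost of the 4 summits were 128 bp apart. At the limits of the rule, the site with the farthest partner summit (499 bp, fold 5.38 in MB157 iEV) lay near TLE5, and the distal summit just outside (501 bp, fold 4.40) lay near GTPBP3. The site closest to a TSS (1001 bp, fold 10.9) was near OBP2B, and a constant summit exactly 1000 bp from the TSS of CYFIP1 (fold 3.46) counted as a promoter. In 207 sites a partner summit was at least 400 bp away.

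The strongest constant distal site in MB157 iEV lay 29.1 kb downstream of the TSS of IER5, an immediate early gene (chr1:181117230-181118627). Its fold was 81.0 and 49.7 in the iEV and iSOX2 lists of MB157 and 43.6 and 50.3 in the iEV and iN1-ICD lists of MB157R. It was followed by a site on chromosome 20, 122 kb from the nearest TSS (chr20:50312453-50313597), whose fold was 76.0, 44.9, 11.4 and 4.24 in the same order of lists. Its percentile rank in MB157R was 93.7 with iEV and 31.8 with iN1-ICD. A site 2.18 kb upstream of LEFTY1, an inhibitor of NODAL signaling, had folds of 73.1, 44.5, 22.2 and 40.7. A site 66.3 kb upstream of MYC, the growth regulator (chr8:127668424-127670134), had folds of 70.6, 34.6, 23.1 and 47.8. At both, RBPJ was lowest in MB157R iEV. For the MYC site, the MB157R iEV value is that of a partner summit 288 bp away.

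NRARP, a feedback inhibitor of NOTCH, had its strongest site 9.35 kb upstream of the TSS, in intron 19 of the neighboring gene EXD3 (chr9:137310475-137312857). Its folds were 70.1 and 53.9 in MB157 iEV and iSOX2 and 111 and 99.2 in MB157R iEV and iN1-ICD. It was the only site among the 12 strongest with more fold in both MB157R lists than in both MB157 lists. A site 14.7 kb upstream of ZNF692, a zinc finger gene (chr1:248872812-248874488), had folds of 59.6, 58.8, 67.0 and 51.9. Counted from the strongest peak, it stood at position 13, 13, 18 and 14 of the 4 lists, and its lowest percentile rank was the highest of all constant distal sites. A site 2.24 kb downstream of the TSS of RHOV (chr15:40871140-40872778), had folds of 67.7, 44.4, 21.8 and 47.4.

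In intron 1 of APP, the amyloid precursor gene (chr21:26115557-26117063), the folds were 66.0, 46.9, 4.31 and 27.9, and the summit held 203, 166, 12 and 80 fragments. The site was at percentile rank 31.6 in MB157R iEV and at 99.6 or above in the other lists. Of the remaining sites of the 12, those near SULT1A4, in intron 1 of ARHGEF10L, in intron 1 of MYOF and at chr16:88331939-88333065 had folds between 57.4 and 66.8 in MB157 iEV. In MB157R iEV they had folds between 18.9 and 45.2. Besides the ZNF692, IER5 and 2 NRARP sites, the 5 sites that ranked high in every list included a site on chromosome X, 120 kb from the nearest TSS (chrX:46327134-46328067). Its folds were 53.3, 50.6, 63.6 and 61.3.

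Of 20 canonical NOTCH target genes, 13 (65.0%) had at least 1 constant distal site given to them, as the nearest protein-coding TSS within 50 kb. Among all 19618 protein-coding genes this share was 9.98%. The list was chosen with results of these data known, and genes with many peaks around them enter such counts more easily. Any distal MB157 iEV summit was given to 16 of the 20 genes and to 28.4% of all genes. HES1, a transcriptional repressor, had a site with its summit 1.23 kb upstream of the TSS and a peak that ran across it (chr3:194134427-194137830). Its folds were 49.9, 38.4, 39.4 and 23.9 in the order iEV and iSOX2 of MB157, then iEV and iN1-ICD of MB157R. HEY1, a related repressor, had a site 16.4 kb upstream (chr8:79783306-79784878) with folds of 37.9, 58.4, 42.1 and 28.0. At HES1 and HEY1 the lowest fold was that of the cells with induced iN1-ICD.

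The receptor genes had sites inside their first introns or close to them. In intron 1 of NOTCH1 (chr9:136544299-136545016) the folds were 35.7, 36.0, 45.4 and 23.7, and in intron 2 of NOTCH3 (chr19:15194906-15196497) they were 28.1, 25.8, 30.3 and 19.1. CCND1, which encodes cyclin D1, had a site 2.66 kb upstream (chr11:69638100-69639635) with folds of 23.0, 21.4, 27.4 and 15.6. The folds of these genes shared an order, with MB157R iEV highest and MB157R iN1-ICD lowest. The MB157R iN1-ICD value at NOTCH3 is that of a partner summit 305 bp away, which need not mark the same bound position. Their fragments did not share it. They numbered 92, 112, 142 and 112 at NOTCH1, 102, 146, 99 and 66 at NOTCH3, and 59, 64, 166 and 77 at CCND1. The local background, relative to the genome background of its list, was 2.14-fold at NOTCH1 and 2.29-fold at CCND1 in MB157R iN1-ICD. In MB157 iEV it was 1.00-fold at both. At NOTCH3 these values were 1.43-fold and 1.66-fold. HES2, another repressor of the family, had another order of folds. Its site 5.24 kb downstream of the TSS (chr1:6414345-6415473) had folds of 8.45 and 10.9 in MB157 and of 23.6 and 20.9 in MB157R. The sites of the ligand gene JAG1 (intron 5, chr20:10654293-10654853), of the inhibitor of differentiation ID3 (34.2 kb upstream) and of MYC (5.50 kb downstream, chr8:127743053-127743501) had folds from 4.07 to 13.8. The sites of the cell cycle inhibitor CDKN1A (chr6:36682665-36683040) and of the EMT regulator SNAI1 (chr20:50029743-50030436) had folds from 4.18 to 8.16, highest in MB157R iEV. At SNAI1 the values outside MB157 iEV are those of partner summits at least 244 bp away. The stronger site 66.3 kb upstream of MYC lay beyond the 50 kb limit and was not given to that gene. With 1 list each, none of these differences can be set against a replicate spread.

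**Figure D2:**
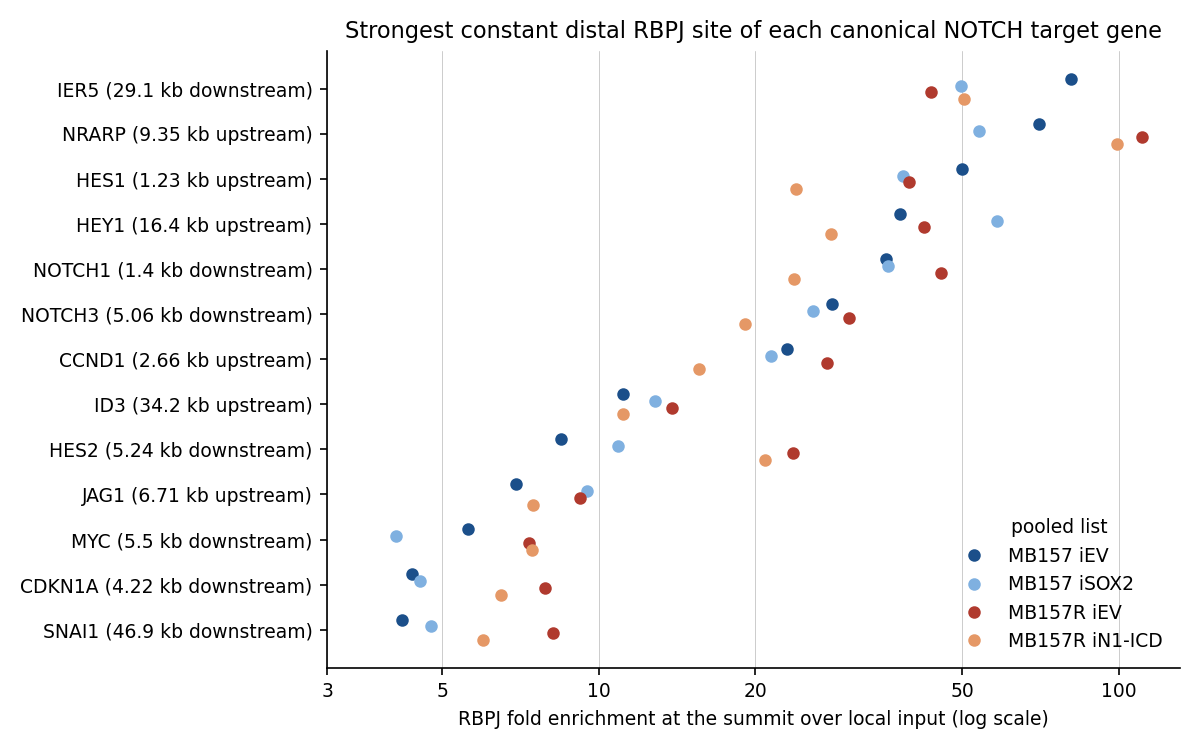
RBPJ fold enrichment at the summit (x axis, log scale) in the 4 pooled lists at constant distal sites of 13 canonical NOTCH target genes. Shown is the strongest site given to each gene within 50 kb, ordered by MB157 iEV, with the distance from the nearest annotated TSS. The stronger site 66.3 kb upstream of MYC is beyond that limit and not shown. Points are single pooled values without error bars. They run from 4.07 (MYC, MB157 iSOX2) to 111 (NRARP, MB157R iEV).

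A longer list held receptors, ligands, modifiers and cofactors of the pathway. It shares NOTCH1, NOTCH3 and JAG1, all with sites, with the canonical targets, so its counts are not separate from those above. Of 35 genes, 9 (25.7%) had a constant distal site, and 18 (51.4%) had any distal MB157 iEV summit. Among all protein-coding genes these shares were 9.98% and 28.4%. DLL4, a NOTCH ligand, had a site in intron 3 (chr15:40930205-40931567) with even folds of 23.4, 28.7, 26.6 and 24.6. SPEN, a corepressor of RBPJ, had a site in intron 1 (chr1:15848882-15850263) with folds of 14.8, 21.1, 31.8 and 16.7. DTX2, PSEN2 and FBXW7 had sites with folds between 2.68 and 10.9. Of the 76 annotated protein-coding genes of the study's own NOTCH signature, 32 (42.1%) had a site. That signature was chosen in part on RNA-seq of these cells and is not independent of them. It also shares genes with the lists above.

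Other gene groups are given in the same way. AP-1 family genes had a site in 9 of 14 cases (64.3%), led by MAFK (chr7:1536889-1538165, folds 16.5, 23.4, 27.5 and 32.5). Immediate early and feedback genes had one in 7 of 15 cases (46.7%), among them DUSP5, a phosphatase of ERK (chr10:110530166-110530574, folds 11.9, 8.57, 40.0 and 27.2). Epithelial genes had one in 8 of 16 cases (50.0%), among them the epithelial cadherin CDH1 (chr16:68760327-68761425, folds 10.6, 6.20, 10.2 and 25.1). At the strongest sites of the other epithelial genes the fold was not highest with iN1-ICD. CLDN4 had folds of 17.7, 17.5, 13.0 and 11.2, and KRT19 of 10.8, 6.06, 3.41 and 2.82. YAP/TEAD genes had one in 5 of 13 cases (38.5%), basal mammary genes in 3 of 11 (27.3%), and luminal mammary genes in 2 of 9 (22.2%). In the basal group, the keratin gene KRT17 (chr17:41653720-41655041) had folds of 10.4 and 9.88 in MB157 and of 36.1 and 44.5 in MB157R. EMT genes (2 of 16), genes of other tissues (2 of 16) and ribosomal protein genes (5 of 80, 6.25%) were near the share of all genes. Stem cell genes had no site (0 of 12). Any distal MB157 iEV summit was given to 10 of the AP-1, 9 of the immediate early, 14 of the epithelial, 6 of the YAP/TEAD, 8 of the basal, 3 of the luminal, 6 of the EMT, 3 of the other-tissue, 20 of the ribosomal and 8 of the stem cell genes.

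The constant distal sites were spread over 1958 genes, of which 1566 had 1 site, and 846 sites (25.3%) were more than 50 kb from any protein-coding TSS. SEPTIN9, a cytoskeletal GTPase gene, had most, with 9 sites (folds in MB157 iEV 3.39 to 12.6) among its 24 distal summits. IER5 had 7. With 6 sites, AMOTL2 (a YAP inhibitor), HSPB1 (a small heat shock protein), ID1 (an inhibitor of differentiation) and POFUT2 (a fucosyltransferase) were tied. Grouping sites with neighbors less than 12500 bp apart put 648 sites (19.4%) into 285 clusters. The 4 largest held 6 sites each. They lay next to TOMM20 (22.7 kb long, folds 2.96 to 48.0), at HSPB1 (22.5 kb, 3.37 to 24.7), at ID1 (24.9 kb, 3.83 to 20.4) and next to CEBPB (30.2 kb, 4.67 to 12.4).

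Among sites with at least 10-fold enrichment in MB157 iEV or MB157R iEV, some moved far in rank between the lines. A site in the TOMM20 cluster (chr1:235079635-235079861) rose from percentile rank 1.7 to 98.9, with folds of 2.96, 3.89, 21.4 and 16.1 in the 4 lists and 15, 20, 91 and 62 fragments. SOX2 of MB157R lay 79 bp from it with a fold of 15.8, and HA-SOX2 of MB157 iSOX2 was not called there. Sites near FBXO31 (chr16:87388120-87388363, folds 3.04 and 11.5) and SOCS3, a suppressor of cytokine signaling (chr17:78351588-78351990, 21 and 53 fragments), rose as well from MB157 iEV to MB157R iEV. Their MB157R iEV values are those of partner summits 339 bp (FBXO31) and 249 bp (SOCS3) away, which need not mark the same bound position. A site on chromosome 8 (chr8:120970005-120971597) fell from fold 17.2 to 2.72, with 95 and 17 fragments, and was at 10.5 in MB157R iN1-ICD.

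The other 2 sites that fell most did so while their fragments increased. Both lie on chromosome 6 (chr6:21831811-21832328 and chr6:21507727-21509283). The first had 46 fragments against 1.89 expected from the local background in MB157 iEV, and 148 against 56.7 in MB157R iEV. The second had 62 against 2.76 and 118 against 41.8. The local background, relative to the genome background of its list, was 31.1-fold and 22.9-fold in MB157R iEV, 34.2-fold and 25.5-fold in MB157R iN1-ICD, and at most 1.89-fold in the MB157 lists. The lower folds in MB157R thus went with a higher background and not with fewer fragments. In all, 4 constant distal sites on chromosome 6 between 21371951 and 21832073 had such a background. Further sites had at least 10-fold background in MB157R iEV, with 1 on chromosome 3. The others were 3 on chromosome 1, 3 on 5, 2 on 17, and 1 each on 2 and 10. By chromosome, the median background of these others was 21.9-fold to 184-fold across the 4 lists. Their median folds in MB157 iEV were 1.38 to 2.82. All 3 on chromosome 1 were also near the HA control. Whether such regions hold bound RBPJ was not tested. Over all constant distal sites, the relative background was at least 2-fold higher in MB157R iEV than in MB157 iEV at 197 sites (5.89%) and at least 2-fold lower at 177 (5.29%). Over the 2167 sites where it differed by no more than 1.5-fold, Spearman's rank correlation between the folds was 0.38, against 0.39 over all sites.

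SOX2 was frequent at the constant distal sites. In MB157R iEV, a SOX2 summit lay less than 500 bp from 1858 of them (55.6%, 95% exact binomial interval 53.9 to 57.3), while this was true of 20.3% of all distal MB157 iEV summits. Of the 12168 distal summits that were not constant, 10.6% were near SOX2, giving an odds ratio of 10.6 (9.70 to 11.6, two-sided exact test of Fisher, adjusted p = 1e-300, the smallest value written). Most of those 12168 summits had no RBPJ call in MB157R, where SOX2 was measured. Against the 2045 of them that did have one in MB157R iEV, 35.3% were near SOX2 and the odds ratio was 2.29 (2.05 to 2.57, exact test, adjusted p = 4.0e-47). The difference thus remained and was smaller. Fold in MB157R iEV, where SOX2 was measured, and the call in MB157R iN1-ICD were not matched.

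HA-SOX2 of MB157 iSOX2 lay near 2002 constant distal sites (59.9%, 58.2 to 61.6), near 46.7% of all distal summits and near 43.0% of those that were not constant (odds ratio 1.98, 1.83 to 2.14, two-sided exact test of Fisher, adjusted p = 3.4e-66). Against the 6394 distal summits that were called in MB157 iSOX2 RBPJ but were not constant, of which 57.3% were near HA-SOX2, the odds ratio was 1.11 (1.02 to 1.21, exact test, adjusted p = 0.0179). Over 5 bins of MB157 iEV RBPJ fold it was then 1.02 (Mantel-Haenszel, 0.938 to 1.12). Fold in MB157 iSOX2, where HA-SOX2 was measured, was not matched.

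The 2 SOX2 lists overlapped at the constant distal sites, and their unequal lengths were not matched in the following counts. Of the 1858 sites near SOX2 of MB157R iEV, 78.7% were near HA-SOX2, as were 36.3% of the 1485 sites without SOX2 (odds ratio 6.50, 5.58 to 7.58, two-sided exact test of Fisher, adjusted p = 1.5e-138). Sites near both numbered 1463 (43.8%), near SOX2 of MB157R alone 395 (11.8%), near HA-SOX2 alone 539 (16.1%) and near neither 946 (28.3%). The median RBPJ percentile ranks of sites near both were 74.3 (iEV) and 78.6 (iSOX2) in the MB157 lists and 81.2 (iEV) and 77.9 (iN1-ICD) in those of MB157R. In the same order they were 66.1, 71.1, 86.8 and 83.5 for sites near SOX2 of MB157R alone. For sites near HA-SOX2 alone they were 75.9, 81.9, 68.9 and 67.6, and for sites near neither they lay between 67.6 and 75.2. These ranks are a description, and the differences between the groups were not tested. Those near SOX2 were at a median of 103 bp from its summit, and those near HA-SOX2 at 101 bp. The group near neither lay closest to genes, at a median of 13.8 kb from a TSS, against 25.4 kb for the group near both.

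Few of these sites had a SOX2 call when iN1-ICD was induced. SOX2 of MB157R iN1-ICD lay near 56 constant distal sites (1.68%), all of them among the 1858 near SOX2 of MB157R iEV, and near 0.484% of all distal summits. Of the distal summits that were not constant, 19 (0.156%) were near it. These 56 sites took 17.3% of the 323 SOX2 peaks of that list. The list was short as a whole, since SOX2 had 37963 peaks in MB157R iEV. Among sites near SOX2 of MB157R iEV, 3.01% of the constant distal ones were also near SOX2 of MB157R iN1-ICD. Among those that were not constant this share was 1.32%. The HA control of MB157 iEV, 1 library from cells without the tag, had 77 summits, and 16 constant distal sites were near one (0.479%, against 0.251% of all distal summits). Of these 16, 11 were also near SOX2 of MB157R iN1-ICD. Without sites near the control, 45 (1.35%) were left.

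**Figure D3:**
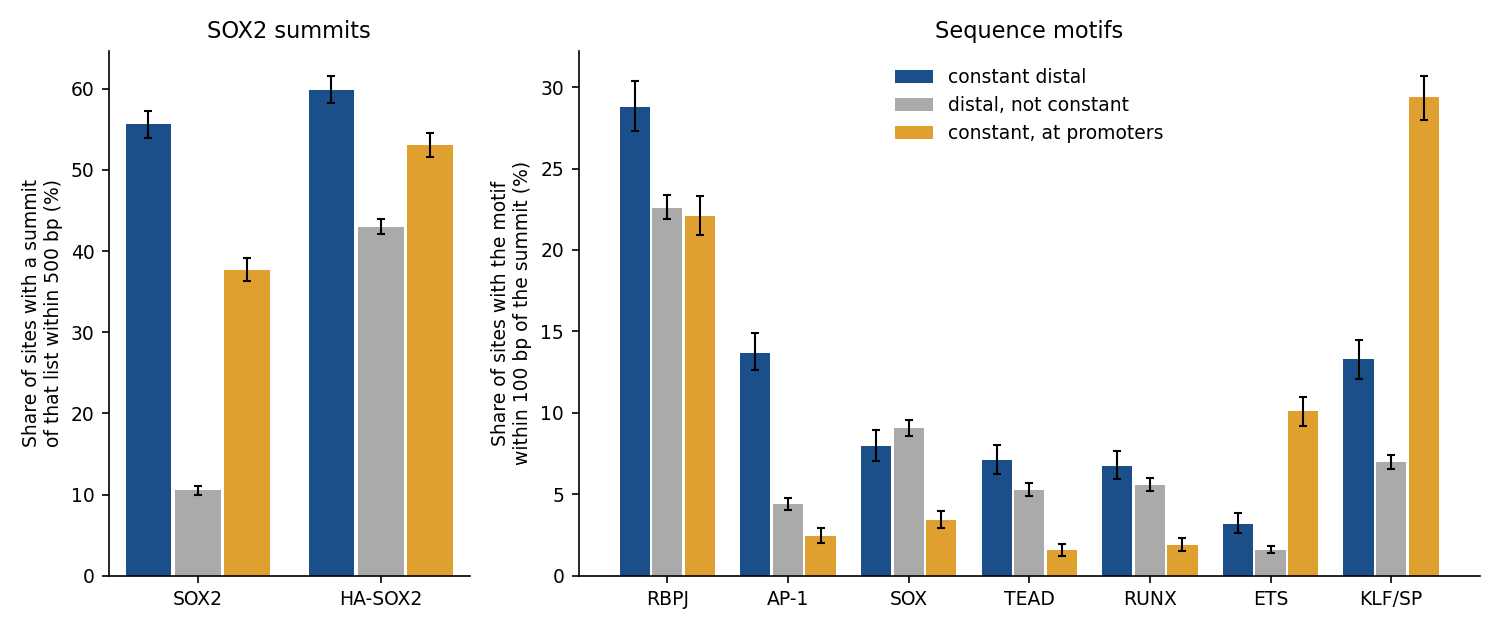
Left, share of sites with a summit of MB157R iEV SOX2 or of MB157 iSOX2 HA-SOX2 within 500 bp (y axis, %). Right, share with a motif within 100 bp of the summit (y axis, %). Bars show 3343 constant distal sites, 12168 distal sites that were not constant and 4582 constant sites at promoters, with exact 95% intervals. The constant distal bar is the highest of the 3 for SOX2 (55.6%), HA-SOX2 (59.9%) and the RBPJ (28.8%) and AP-1 (13.7%) motifs.

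An RBPJ motif was present within 100 bp of 963 constant distal summits (28.8%, 27.3 to 30.4), of 23.9% of all distal summits and of 7.19% of the windows 1 kb to either side of the constant distal sites. Of these sites, 726 had GTGGGAA and 270 had GTGAGAA. The match closest to the summit was within 50 bp of it at 78.5% of the sites with a match. Against distal summits that were not constant (22.6%) the odds ratio was 1.39 (1.27 to 1.51, two-sided exact test of Fisher, adjusted p = 5.0e-13). Over 5 bins of fold this excess was gone (Mantel-Haenszel odds ratio 0.995, 0.908 to 1.09). The motif went with strength. It was found at 55.5% of the strongest decile of constant distal sites (fold 13.9 to 81.0 in MB157 iEV) and at 15.8% of the weakest (1.32 to 3.94). The shorter TGGGAA was found at 51.4% of the constant distal sites, 43.2% of those not constant, 45.0% of all distal summits and 16.3% of the windows 1 kb away, and at 77.9% and 32.2% of the strongest and the weakest decile. The reversed letters of the RBPJ motif (AAGGGTG or AAGAGTG), a control for base composition, were found at 5.86% of the constant distal sites and at 6.09% of all distal summits. The shares by decile are a description without a test.

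A pair of facing full RBPJ motifs with 15 to 17 bp between them was found at 1 constant distal site and at 0.0258% of all distal summits. With TGGGAA in place of the full motif, 8 sites (0.239%) had such a pair, 6 of them in the strongest decile of 335 sites. Among distal summits that were not constant the share was 0.230%. The site near NRARP shown above was a case of it.

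The AP-1 motif, bound by FOS and JUN dimers, set the constant distal sites apart more clearly. It was found at 458 of them (13.7%, 12.6 to 14.9), at 6.42% of all distal summits and at 4.42% of those that were not constant (odds ratio 3.43, 3.01 to 3.91, two-sided exact test of Fisher, adjusted p = 5.2e-70). Over bins of fold the odds ratio was 3.42 (2.97 to 3.94). Against the not constant summits that were called in MB157R iEV RBPJ, of which 9.39% had the motif, it was 1.53 (1.28 to 1.83, exact test, adjusted p = 3.3e-06). The share did not follow strength, with 13.7% in the strongest and 13.4% in the weakest decile. It was 3.20% in windows 1 kb away, and the reversed AP-1 letters (ACTCAGT or ACTGAGT) were found at 2.03% of the constant distal sites and 2.42% of all distal summits. An RBPJ and an AP-1 motif occurred together at 131 sites, and 1887 sites (56.4%) had neither of them nor a SOX motif.

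**Figure D4:**
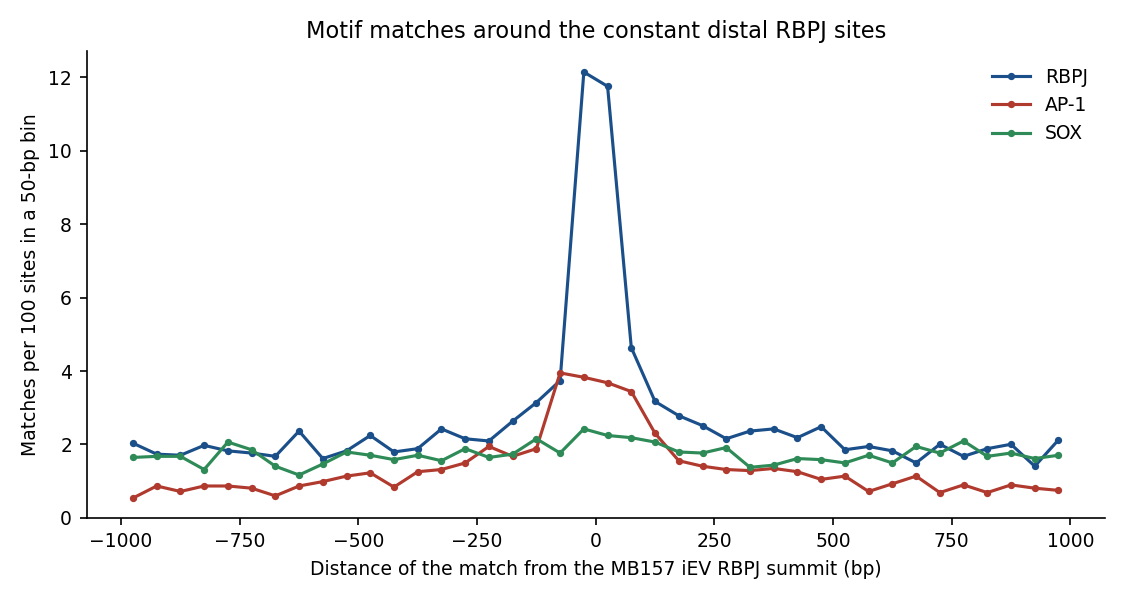
Motif matches per 100 constant distal sites in bins of 50 bp (y axis) by distance from the MB157 iEV RBPJ summit (x axis, bp), for the RBPJ, AP-1 and SOX motifs. RBPJ matches peak within 50 bp of the summit (12.1 and 11.8 per bin), AP-1 matches form a lower and wider rise (3.95 per bin at most), and SOX matches stay between 1.17 and 2.42.

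The SOX motif was found at 266 constant distal sites (7.96%, 7.06 to 8.93), at 8.82% of all distal summits and at 9.06% of those that were not constant. The odds ratio was 0.868 (0.755 to 0.998, two-sided exact test of Fisher, adjusted p = 0.0645), which did not pass the threshold, and over bins of fold it was 0.756 (0.655 to 0.873). Against the not constant summits that were called in MB157R iEV RBPJ (6.55%) it was 1.23 (0.994 to 1.53), so the direction depended on the reference. Inside the constant distal sites the motif went with SOX2. It was found at 11.6% of sites near SOX2 of MB157R iEV and at 3.43% of sites without it (odds ratio 3.68, 2.69 to 5.03, two-sided exact test of Fisher, adjusted p = 9.8e-19). AP-1 motifs were also more frequent at sites near SOX2 (18.5% against 7.68%, odds ratio 2.73, 2.18 to 3.42, exact test, adjusted p = 5.4e-20), and RBPJ motifs less frequent (25.0% against 33.6%, odds ratio 0.658, 0.566 to 0.764, adjusted p = 8.0e-08). In bins of fold these odds ratios were 3.66, 2.73 and 0.631.

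**Figure D5:**
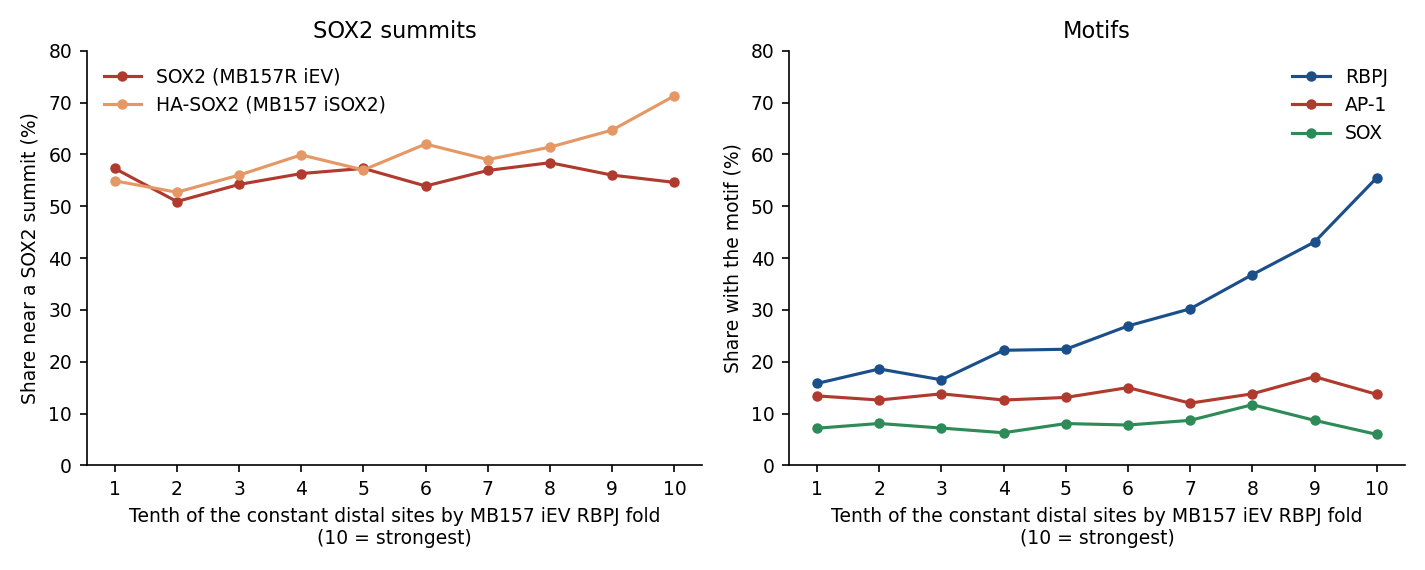
Share of constant distal sites near a SOX2 summit (left, y axis, %) and with a motif (right, y axis, %) by decile of MB157 iEV RBPJ fold (x axis, 334 or 335 sites each, 10 = strongest). The RBPJ motif share rises from 15.8% to 55.5%, HA-SOX2 from 54.9% to 71.3%, and the SOX2 share of MB157R iEV stays between 50.9% and 58.4%.

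Other motifs were compared with the distal summits that were not constant in the same way. The windows of constant distal sites were richer in GC (median 57.7% against 53.7%) and in CpG (mean 7.31 against 5.19), and the part of base composition in these differences was not tested. GGGCGGG, bound by KLF and SP proteins, was found at 13.3% against 6.98% (all distal 8.34%, odds ratio 2.04, 1.81 to 2.31). CCGGAAG, bound by ETS proteins, was found at 3.17% against 1.59% (all distal 1.93%, odds ratio 2.03, 1.60 to 2.58). The CTCF motif was found at 2.90% against 1.23% (all distal 1.59%, odds ratio 2.39, 1.85 to 3.10). These 3 passed Fisher's exact test with adjusted p of at most 5.6e-08, as did ACATTCC, bound by TEAD proteins, with 7.09% against 5.29% (all distal 5.68%, odds ratio 1.37, 1.17 to 1.59, adjusted p = 1.6e-04). TGTGGTT, bound by RUNX proteins, passed (6.76% against 5.59%, all distal 5.84%, exact test, adjusted p = 0.0179) and did not over bins of fold (odds ratio 1.05, 0.891 to 1.23). GCCAAT of NFY (all distal 6.58%), TGTTTAC of FOX (2.76%), AGATAAG of GATA (1.07%) and ATGCAAA of POU proteins (2.69%) and the E-box CACGTG (3.98%) did not pass, with odds ratios from 0.705 to 1.11.

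Constant sites at promoters offered the closest comparison. SOX2 of MB157R iEV lay near 37.7% of them and near 55.6% of the constant distal sites (odds ratio 2.06, 1.89 to 2.26, two-sided exact test of Fisher, adjusted p = 3.0e-55), and HA-SOX2 near 53.1% and 59.9% (odds ratio 1.32, 1.21 to 1.44, adjusted p = 3.1e-09). The distal sites held more AP-1 (13.7% against 2.42%, odds ratio 6.39, 5.17 to 7.91), TEAD (7.09% against 1.57%, 4.78, 3.66 to 6.25), RUNX (6.76% against 1.88%, 3.79, 2.94 to 4.88) and SOX motifs (7.96% against 3.43%, 2.44, 1.99 to 2.98). They held fewer ETS (3.17% against 10.1%, 0.293, 0.236 to 0.363) and KLF/SP motifs (13.3% against 29.4%, 0.369, 0.327 to 0.415). The RBPJ motif was found at 28.8% against 22.1% (1.43, 1.29 to 1.58). Over 5 bins of MB157 iEV fold its odds ratio was 1.23 (Mantel-Haenszel, 1.10 to 1.37), and single bins ranged from 0.836 to 2.09. Each of these motif differences passed Fisher's exact test, with adjusted p of at most 2.3e-11. The windows differed in base composition, with a median GC content of 57.7% at constant distal and 65.2% at promoter sites, and its part in the motif differences was not tested.

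By position, 1304 constant distal sites (39.0%) lay between genes, 1243 (37.2%) in introns and 188 (5.62%) in exons of protein-coding genes, and 608 (18.2%) in lncRNA genes alone. The median distance to a protein-coding TSS was 19.6 kb, and 729 sites (21.8%) were within 5 kb of one. The start of a lncRNA transcript lay within 1 kb of 499 sites (14.9%, 13.7 to 16.2), of 9.07% of all distal summits and of 7.46% of those that were not constant (odds ratio 2.18, 1.94 to 2.45, two-sided exact test of Fisher, adjusted p = 9.9e-36). A part of the constant distal sites thus lay at noncoding starts, with the named sites of HES1, HEY1 and ID3 among them.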

How the data were processed

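RBPJ, SOX2 or HA was immunoprecipitated after cross-linking, with 3 libraries per group and 1 for the HA control. The authors used BWA for alignment to hg38 and MACS2 for narrow peaks, at a false discovery rate of 0.05, per the study's methods and the submitters' processing notes, which give no versions here. Each of the 8 deposited lists pools the libraries of a group. The deposited columns used were peak positions (other values, in bp), the fold ratio at the summit over local background, the −log10 p and the −log10 q. Read totals are not in the lists, so depth was described by fragments at the summit, recovered from the fold and the −log10 p.

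Summits less than 500 bp apart counted as near. TSSs were 88858 starts of protein-coding transcripts (GENCODE, hg38), and motifs were searched within 100 bp of the summit on both strands. Shares were compared with Fisher's exact test, two-sided, with Benjamini-Hochberg adjustment over 39 tests (threshold 0.05), Woolf intervals for odds ratios, exact binomial intervals for shares and Mantel-Haenszel odds ratios over 5 bins of MB157 iEV fold (Python 3.11.15, SciPy 1.17.1, statsmodels 0.14.6). The code was tested on simulated data. Members and gene lists were chosen with earlier results of these data known. Added after seeing the data were the reference classes matched on an RBPJ call, TGGGAA, and the comparisons with promoter sites and within constant distal sites.

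Named were the 12 strongest MB157 iEV sites (1 per gene) and the strongest site given to each canonical target within 50 kb. The 5 sites with the highest lowest rank were added. From sites at least 10-fold in MB157 iEV or MB157R iEV came the 3 that rose and 3 that fell most in rank. The 6 genes with most sites, the 3 largest clusters, with ties shown, and sites at the limits of the rule completed them. Examples from other gene lists were chosen after their values were seen. Some items covered by these rules are not reported here.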

Additional observations from a re-analysis of the deposited data

How the results depend on the processing

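No paired analysis was possible because peaks were called on pooled libraries, and for the same reason no library could be left out. The number of constant distal sites was 1543 with summits less than 100 bp apart and 1909 when peaks needed a −log10 q of 5 or more, and stayed within 1.5 times of 3343 under the other 8 alternatives. The odds ratio of SOX2 of MB157R iEV against other distal summits kept its direction and its side of the threshold in 14 of 14 alternatives (2.29 to 37.5), that of the AP-1 motif in 14 of 14 (1.53 to 4.36) and that of noncoding starts in 9 of 9 (1.76 to 2.97). That of HA-SOX2 did so in 13 of 14 (1.02 to 4.39). It was 1.02, no longer past the threshold, against summits also called in MB157 iSOX2 RBPJ and in bins of fold. That of the RBPJ motif did so in 14 of 15 (0.995 to 2.38) and turned to 0.995 in bins of fold. That of the SOX motif (0.868) ranged from 0.703 to 1.23. Without passing the threshold it was above 1 within 50 bp of the summit (1.03) and against summits also called in MB157R iEV RBPJ (1.23), and it passed at 0.862 (summits less than 1000 bp apart), 0.828 (overlapping peaks), 0.703 (−log10 q of 5 or more), 0.839 (gene starts in place of transcript starts) and 0.756 (bins of fold). The cause of these changes was not tested. With medians of 20 to 27 fragments at a summit, a missing call can be a site just under the calling limit.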
